A study of Mus musculus with 28 samples.

Results

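The genes described here are 10 mouse genes listed as luminal progenitor factors and Kit ligand, which is a name and not a result. Elf5, Ehf, Elf3, Runx1 and Sox9 encode transcription factors, Kit and Kitl a receptor and its ligand, and Cd14, Tspan8 and Plet1 cell surface proteins. They were chosen by name, and each was found as 1 row among the 50600 gene IDs of the count table. They were followed across 28 RNA-seq libraries from the mammary glands of 7 adult female C57BL/6 mice. All mice carried PdgfraCre and the R26mTmG reporter, in which cells that have expressed Pdgfra, and their progeny, turn from tdTomato to GFP for good. A GFP+ cell is thus one with Cre activity at any time in itself or in an ancestor, and need not express Pdgfra when sorted. Luminal cells (CD49f lo EpCAM+) and stromal cells (CD49f- EpCAM-) negative for the leukocyte, red cell and endothelial markers CD45, Ter119 and CD31 were sorted into GFP+ and tdTomato+ fractions. A total of 4 mice were untreated and 3 had received estrogen and progesterone (E+P), which gives 8 groups of 4 or 3 libraries, with 1 library of each of the 4 fractions from every mouse. The hormone pellets are described in the methods for wild-type mice, and the dose given to these reporter mice was not taken from there.

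Luminal cells of the mammary duct include progenitors without hormone receptors, which surface KIT, CD14 and TSPAN8 can mark, and mature cells that carry estrogen and progesterone receptors. ELF5 is an ETS transcription factor known as a driver of the secretory alveolar lineage, EHF and ELF3 are epithelial ETS factors, and RUNX1 and SOX9 are lineage factors used in several epithelia. KIT is a receptor tyrosine kinase that signals when it binds stem cell factor, the product of Kitl, which is made as a membrane-bound protein and can be shed. Placenta-expressed transcript 1, the product of Plet1, is a surface protein of epithelial progenitors.

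Total counts ran from 8623383 to 24583803 per library, so that 3 counts, the limit that a count of 0 allows, correspond to 0.122 to 0.348 CPM of the library total. CPM are counts divided by the library size after TMM scaling over the 28 libraries and multiplied to a common total, and the limits cover counting error only. Sorted fractions carried their own markers: the fibroblast list reached 61145 CPM in GFP+ stroma against at most 110.4 CPM in any luminal library. The tdTomato+ stroma also held muscle RNA, with a summed level of 6624 to 9490 CPM for 8 pericyte and smooth muscle genes, against at most 306 CPM in GFP+ stroma, and 2332 to 20581 CPM for the skeletal muscle list. The 7 basal epithelial markers, which share Acta2 and Myh11 with the smooth muscle genes, summed to 1600 to 6217 CPM in untreated tdTomato+ stroma. After E+P they summed to 2075 to 2659 CPM there, against at most 64.5 CPM in GFP+ stroma of either treatment. The part of basal cells, muscle, fibroblasts, macrophages or endothelial cells in stromal differences was not tested. One library, the tdTomato+ stroma of untreated mouse 3, is named here the library that stands apart. In it 7 luminal epithelial markers summed to 7.38% of their mean over the 14 luminal libraries, the highest of its group. The other 3 libraries of that group held 0.306% to 4.55%, with untreated mouse 2 at 4.55%. Leaving out the library of mouse 3 therefore does not free the group of luminal RNA. Differences of members between untreated stromal fractions are given with and without that library, except for Elf5.

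Promoter sequence is shown for the receptor gene Kit, for Plet1, the most abundant member per length in GFP+ luminal cells, and for Elf5, the member with the widest gap between luminal cells and stroma, because all 3 were higher in GFP+ luminal cells and 3 of the 10 genes encode ETS factors. The stretches come from RefSeq on GRCm38.p6 and end before the first base that GENCODE M21 places in an exon. They read 5′ to 3′ on the + strand. Capitals mark GGAAG, the ETS core GGAA with a following G, searched on both strands as GGAAG or CTTCC. The Kit stretch is chr5:75574737-75574915, the Elf5 stretch chr2:103423818-103424061, before the downstream of its starts, and the Plet1 stretch chr9:50494275-50494524.
Kit: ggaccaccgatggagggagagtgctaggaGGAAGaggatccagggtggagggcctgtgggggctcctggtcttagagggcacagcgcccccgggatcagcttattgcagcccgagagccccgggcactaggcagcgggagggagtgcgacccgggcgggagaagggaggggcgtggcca
Elf5: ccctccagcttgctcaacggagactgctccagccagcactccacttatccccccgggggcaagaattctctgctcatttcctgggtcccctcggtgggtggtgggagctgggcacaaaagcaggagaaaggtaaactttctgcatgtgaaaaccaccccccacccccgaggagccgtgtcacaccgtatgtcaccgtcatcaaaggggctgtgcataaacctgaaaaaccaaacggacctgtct
Plet1: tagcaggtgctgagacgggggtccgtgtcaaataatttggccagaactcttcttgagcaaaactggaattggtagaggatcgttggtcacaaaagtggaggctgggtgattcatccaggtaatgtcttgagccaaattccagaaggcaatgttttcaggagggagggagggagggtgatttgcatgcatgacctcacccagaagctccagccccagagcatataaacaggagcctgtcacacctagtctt
Kit holds 1 GGAAG, and the Elf5 and Plet1 stretches hold 0. The shorter GGAA or its complement TTCC was not counted and does occur in the Elf5 and Plet1 stretches. The window before the other Elf5 start holds 1 GGAAG. In full 250-base windows before the RefSeq starts, 5 of the 10 windows of the 7 members with an entry held GGAAG, while 64.1% of all 32851 windows held it. The RUNX core TGTGGT or its complement ACCACA was in 0 of the 10 member windows and in 14.05% of all windows. These counts describe letters in a window and not bound sites.

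**Figure D1:**
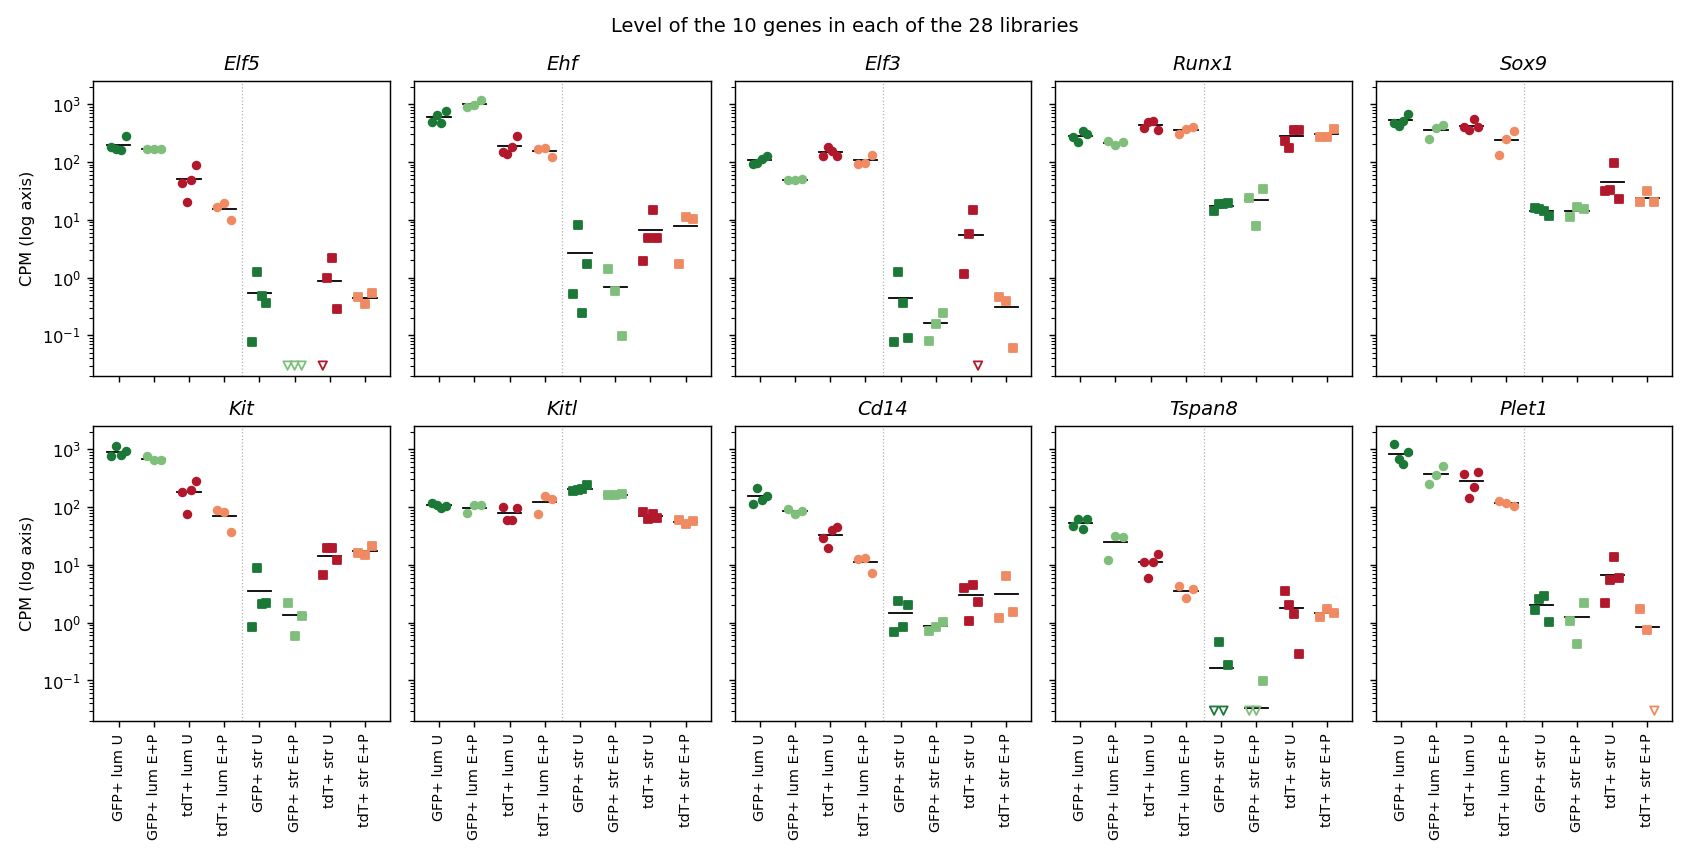
Level of each of the 10 genes in CPM on a log axis, with 1 point for each of the 28 libraries and a bar at the group mean. Circles are luminal (lum), squares stromal (str), U is untreated, tdT is tdTomato, and open triangles are libraries with 0 counts. The luminal libraries of Kitl lie within the range of its stromal ones, and Runx1 in tdTomato+ stroma overlaps with its luminal range.

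The ETS factor genes were luminal, and 2 of the 3 were higher in GFP+ than in tdTomato+ luminal cells. Elf5 (ENSMUSG00000027186, chr2:103411688-103450989, + strand) stood at 183, 167, 161 and 281 CPM in the 4 untreated GFP+ luminal libraries. In tdTomato+ luminal cells of the same mice it stood at 42.4, 20.3, 47.7 and 89.6 CPM. Every GFP+ library lay above every tdTomato+ library, and Elf5 was 3.92-fold higher in GFP+ cells (log2 fold change 1.97 ± 0.37 SE, adjusted p = 0.00248). All p-values of this kind come from edgeR's quasi-likelihood test, adjusted by Benjamini-Hochberg over all genes tested, and a gene was called under 0.01. The study itself used Elf5 and Kit as progenitor genes on these same samples, so their direction here is not independent evidence. In bulk samples, fewer cells of a type and less RNA per cell cannot be told apart.

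After E+P, Elf5 stood at 167.7, 168.4 and 165.9 CPM in GFP+ luminal cells and at 16.8, 19.5 and 9.75 CPM in tdTomato+ luminal cells. The GFP+ libraries were nearly identical, the tdTomato+ ones were the lowest of all luminal libraries, and the difference was 10.6-fold (log2 3.40 ± 0.46, adjusted p = 0.000149). Without untreated mouse 1 the untreated difference was 1.95 on the log2 scale with an adjusted p of 0.0166, without untreated mouse 3 it was 2.03 with 0.0104, and in a fit of only both groups compared it was 1.99 with 0.0115.

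Ehf (ENSMUSG00000012350, chr2:103263433-103303278, - strand) is the neighbour of Elf5, with 108409 bases between the genes. Untreated GFP+ luminal cells had 494, 638, 470.4 and 747 CPM of Ehf, and tdTomato+ luminal cells 148, 137, 179 and 279 CPM. The ranges did not overlap and the difference was 3.15-fold (log2 1.65 ± 0.23, adjusted p = 0.000453). After E+P the GFP+ libraries had the highest Ehf levels of the series, 879, 980.2 and 1172 CPM, against 167, 175 and 123 CPM in tdTomato+ cells, a 6.32-fold difference (log2 2.66 ± 0.27, adjusted p = 1.4e-05).

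Elf3 (ENSMUSG00000003051, chr1:135253575-135258568, - strand) ran the other way. It stood at 92.0, 97.4, 112 and 125 CPM in untreated GFP+ luminal cells and at 126, 181, 156 and 127 CPM in tdTomato+ cells. The ranges did not overlap, but the difference of -0.48 ± 0.14 on the log2 scale was not called (adjusted p = 0.022). After E+P the GFP+ libraries had 49.3, 48.0 and 51.3 CPM and the tdTomato+ libraries 91.2, 94.1 and 133 CPM. Here Elf3 was lower in GFP+ cells at 0.455 of the tdTomato+ level (log2 -1.14 ± 0.17, adjusted p = 0.000157).

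Of the other lineage factors, Runx1 was lower in GFP+ luminal cells and Sox9 was not called. Runx1 (ENSMUSG00000022952, chr16:92601466-92826149, - strand) had 274, 223, 338 and 307 CPM in untreated GFP+ luminal cells and 391, 495, 502 and 362 CPM in tdTomato+ luminal cells. All tdTomato+ libraries lay above all GFP+ libraries, and Runx1 stood at 0.648 of the tdTomato+ level in GFP+ cells (log2 -0.63 ± 0.14, adjusted p = 0.00563). After E+P it stood at 0.581 of that level (log2 -0.78 ± 0.17, adjusted p = 0.00214). The untreated call was lost under scaling by library size (adjusted p = 0.0156), in a fit of only both groups compared (adjusted p = 0.0194) and when any mouse but untreated mouse 4 was left out (adjusted p up to 0.0481), with the direction kept. The E+P call of Runx1 was lost under scaling by library size (adjusted p = 0.0143) and without E+P mouse 2 (0.0466) or 3 (0.0362). Sox9 (ENSMUSG00000000567, chr11:112782224-112787760, + strand) was high in all luminal libraries, with 131 to 685 CPM. Its GFP+ to tdTomato+ differences of 0.28 ± 0.26 untreated and 0.54 ± 0.30 after E+P had adjusted p = 0.449 and 0.175, and the 95% interval of the first ran from -0.28 to 0.85.

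Kit, the receptor gene, was higher in GFP+ than in tdTomato+ luminal cells of every mouse. Kit (ENSMUSG00000005672, chr5:75574916-75656722, + strand) stood at 761, 1155, 791 and 915 CPM in untreated GFP+ luminal cells and at 183, 75.5, 199.9 and 279.6 CPM in tdTomato+ cells of the same mice. Each mouse had more Kit in its GFP+ fraction, the ranges did not overlap, and the difference was 4.87-fold (log2 2.28 ± 0.36, adjusted p = 0.00104). With E+P the GFP+ libraries had 748, 647 and 642 CPM and the tdTomato+ libraries 89.9, 82.9 and 37.0 CPM, which is 9.41-fold (log2 3.23 ± 0.44, adjusted p = 0.000143).

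The surface protein genes were higher in GFP+ luminal cells as well. Cd14 (ENSMUSG00000051439, on chromosome 18), which encodes the lipopolysaccharide co-receptor, had 114, 213, 132 and 153 CPM in untreated GFP+ luminal cells and 28.7, 19.7, 39.3 and 44.5 CPM in tdTomato+ cells. The groups did not overlap, and GFP+ cells were 4.598-fold higher (log2 2.20 ± 0.27, adjusted p = 0.000339). After E+P the difference was 7.45-fold (log2 2.90 ± 0.33, adjusted p = 3.72e-05).

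Tspan8 (ENSMUSG00000034127, chr10:115816832-115849893, + strand), a tetraspanin gene, had 47.8, 61.4, 42.1 and 60.9 CPM in untreated GFP+ luminal cells against 11.3, 6.02, 11.1 and 15.4 CPM in tdTomato+ cells. Again no library of one group reached the other, at 4.78-fold (log2 2.26 ± 0.32, adjusted p = 0.00055), and at 6.77-fold after E+P (log2 2.76 ± 0.39, adjusted p = 0.00016). Plet1 (ENSMUSG00000032068, chr9:50494525-50505482, + strand) had 1208, 675, 554 and 875 CPM in untreated GFP+ cells and 375, 144, 226 and 399 CPM in tdTomato+ cells. It was 2.87-fold higher (log2 1.52 ± 0.34, adjusted p = 0.00564) without overlap, and 3.10-fold higher after E+P (log2 1.63 ± 0.39, adjusted p = 0.00567).

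The Plet1 calls were close to the threshold, and without a filter on low counts both were lost (adjusted p = 0.0213 untreated and 0.0207 after E+P). The untreated call was also lost in a fit of only both groups compared (log2 1.54, adjusted p = 0.018). Leaving out untreated mouse 1, 2, 3 or 4 gave the untreated difference an adjusted p of 0.0174, 0.0169, 0.0129 or 0.0134, leaving out E+P mouse 2 gave it 0.0149, and leaving out E+P mouse 1, 2 or 3 gave the E+P difference 0.0127, 0.0408 or 0.0687. The strand setting of the counting is not given in the sources used here, so reads of Plet1 cannot be told apart from those of its antisense neighbour Plet1os, which shares 261 bases of exon. The same holds for Elf3, Runx1 and Tspan8, whose antisense neighbours share 162, 106 and 4 bases.

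In all, 6 of 10 members were called higher and 1 lower in untreated GFP+ luminal cells, where 6.98% of all 16538 genes tested were called higher and 8.42% lower. After E+P, 6 were higher and 2 lower, against 11.3% and 14.1% of all genes. The ranges of both groups did not overlap for 8 of 10 members untreated and for 8 of 10 after E+P, against 24.8% and 48.3% of all 19569 genes kept over the series. Over the 10 members the median log2 fold change was 1.59 untreated and 2.15 after E+P, beside -0.01 and -0.00071 over all genes.

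Markers of basal epithelium differed between the luminal subsets as well. The 7 basal epithelial markers summed to 55.1 to 117 CPM in untreated GFP+ luminal cells and 11.3 to 42.6 CPM in tdTomato+ luminal cells, and to 125 to 141 CPM and 39.1 to 66.5 CPM after E+P, without overlap and with 0 of the 7 at 0 in any of these groups. Most of the sum in GFP+ cells was Oxtr, the oxytocin receptor gene, at a mean of 41.9 CPM untreated and 92.0 CPM after E+P, while the basal keratin gene Krt5 was at most 1.10 CPM in any luminal library. The part of basal cells in the differences of the members was not tested.

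The ligand gene Kitl was measured in luminal cells too, without a call. It had 118, 107, 97.4 and 104 CPM in untreated GFP+ luminal cells and 102, 60.1, 59.8 and 95.5 CPM in tdTomato+ luminal cells. All 4 mice had more in the GFP+ fraction but the groups overlapped, and the difference of 0.41 ± 0.23 on the log2 scale had an adjusted p of 0.192. After E+P the GFP+ libraries had 78.8, 107 and 108 CPM and the tdTomato+ libraries 74.3, 158 and 139.7 CPM, so that 1 of 3 mice had more in GFP+ cells, and the difference was -0.38 ± 0.26 (adjusted p = 0.276).

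**Figure D2:**
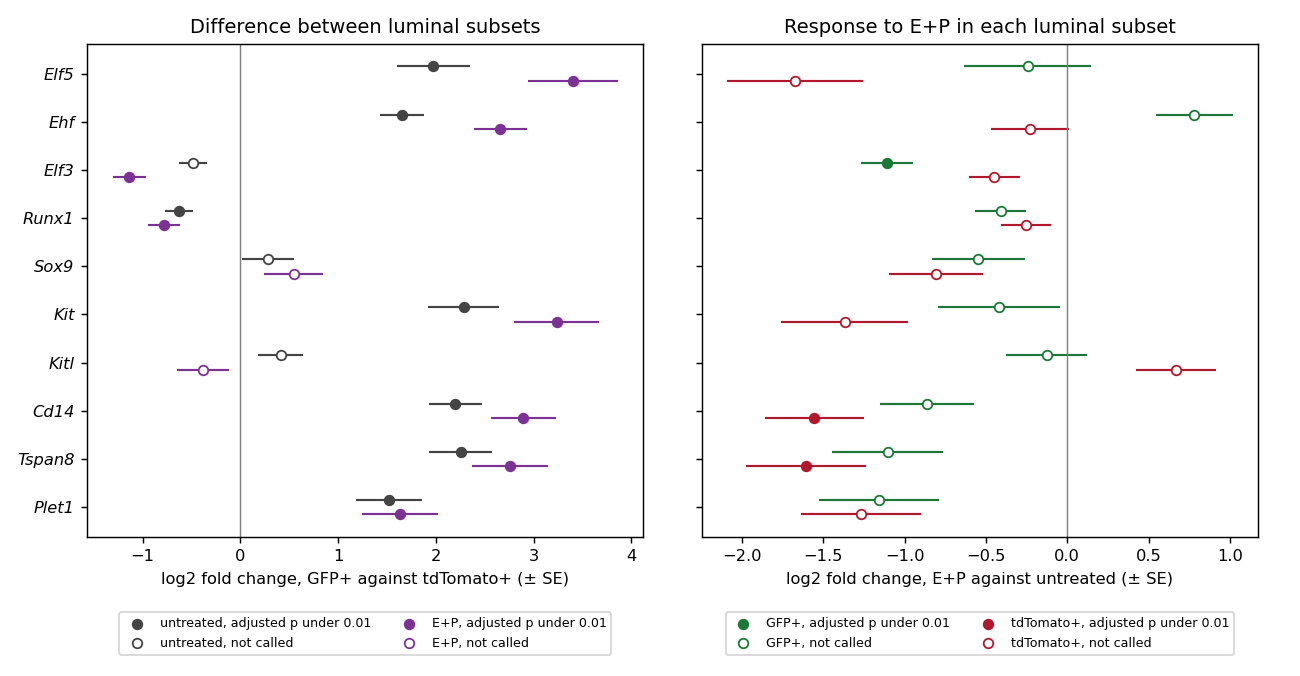
Log2 fold changes ± SE of the 10 genes in luminal cells, between GFP+ and tdTomato+ cells in untreated and E+P mice on the left and between E+P and untreated mice in each subset on the right. Filled points passed an adjusted p of 0.01. Elf5 was 1.97 higher in untreated GFP+ cells and 3.40 higher after E+P.

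Genes listed beside the members also differed between these subsets. Among 12 other luminal progenitor genes, 7 were higher and 0 lower in untreated GFP+ luminal cells (median log2 fold change 1.81). Lcn2, which encodes an iron-binding secreted protein, had 729 against 130.1 CPM (log2 2.47 ± 0.33, adjusted p = 0.000481), and Csn3, a milk casein gene, 739.7 against 147.6 CPM (log2 2.31 ± 0.35, adjusted p = 0.000873). Hey1, a Notch target, had 106 against 24.0 CPM (log2 2.13 ± 0.36, adjusted p = 0.00132). Notch1 and Aldh1a3 of this list were named by the study as progenitor genes on these samples, so the list's count is not independent evidence of its direction. Among 12 hormone-sensing luminal genes, 0 were higher and 8 lower (median -2.19), led by Ly6a (-2.36 ± 0.54, adjusted p = 0.00723), Cited1 (-2.33 ± 0.55, adjusted p = 0.00785) and the pioneer factor gene Foxa1 (-2.31 ± 0.47, adjusted p = 0.00374). After E+P, 12 of 12 were lower in GFP+ cells. The study reported lower Esr1 and Pgr of this list in GFP+ luminal cells of these samples. The counts of this list are therefore also not independent evidence of its direction.

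Around KIT, 24 genes of its signalling and of ligand shedding were measured, and 5 were higher and 4 lower in untreated GFP+ luminal cells (median -0.02). The adaptor genes Gab1 (1.19 ± 0.16, adjusted p = 0.000395) and Gab2 (0.90 ± 0.12, adjusted p = 0.000336) and Pik3r1, a regulatory subunit gene of PI3 kinase (1.43 ± 0.33, adjusted p = 0.0074), were higher. The phosphatase gene Ptpn6 (-0.97 ± 0.20, adjusted p = 0.00287), Stat5a (-0.65 ± 0.16, adjusted p = 0.008) and the ubiquitin ligase gene Cbl (-0.49 ± 0.10, adjusted p = 0.00369) were lower. After E+P 3 were higher, led by Lyn, a Src family kinase gene, at 135.5 against 19.8 CPM (2.73 ± 0.17, adjusted p = 9.83e-07), and 4 were lower. Over all genes, 6.98% were higher and 8.42% lower untreated, and 11.3% and 14.1% after E+P, so the list's counts after E+P are at or near the background.

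Of the 17 other ETS factors 14 were tested, and in untreated cells 1 was higher (Etv5, 1.58 ± 0.38, adjusted p = 0.00886) and 4 were lower, among them Spdef (-1.77 ± 0.28, adjusted p = 0.000734) and Elk3 (-1.18 ± 0.26, adjusted p = 0.00419). Of 15 RUNX and SOX relatives 11 were tested, with 4 higher and 0 lower, led by Sox5 (2.38 ± 0.43, adjusted p = 0.00168), Sox6 (2.31 ± 0.38, adjusted p = 0.00118) and Sox10 (2.12 ± 0.31, adjusted p = 0.000666). Beside Cd14, 4 of 12 genes of the TLR4 complex and its signalling were higher and 0 lower, among them Tlr4 itself at 50.5 against 24.5 CPM (1.03 ± 0.18, adjusted p = 0.00139) and Tlr2 (1.46 ± 0.35, adjusted p = 0.00803).

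E+P lowered few members past the threshold. Elf3 fell in GFP+ luminal cells, from 107 ± 14.9 CPM (SD, n = 4) to 49.5 ± 1.67 CPM (SD, n = 3). All 3 E+P libraries lay below all 4 untreated ones, at 0.464 of the untreated level (log2 -1.11 ± 0.16, adjusted p = 0.00089), and without E+P mouse 2 the adjusted p was 0.0113. In that subset 0 members were called higher and 1 of 10 lower, against 3.17% and 2.78% of all genes. The E+P and untreated ranges did not overlap for 6 of 10 members, against 24.3% of all genes.

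Ehf had the opposite direction in GFP+ luminal cells, 1.72-fold higher with E+P without overlap of the groups. It was not called (log2 0.78 ± 0.24, adjusted p = 0.0419), whereas without untreated mouse 4 it was 0.92 with an adjusted p of 0.00525. Elf5 and Kit had log2 values of -0.24 ± 0.39 and -0.42 ± 0.38 with adjusted p = 0.729 and 0.5, with 95% intervals from -1.09 to 0.60 and from -1.24 to 0.40. Cd14, Tspan8 and Plet1 stood at 0.551, 0.465 and 0.448 of their untreated level, without overlap of the groups, and missed the threshold with adjusted p = 0.0639, 0.0442 and 0.0525. Sox9, Runx1 and Kitl had log2 values of -0.55 ± 0.29, -0.41 ± 0.16 and -0.13 ± 0.25 (adjusted p = 0.225, 0.094 and 0.781).

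In tdTomato+ luminal cells Cd14 and Tspan8 fell. Cd14 had 28.7, 19.7, 39.3 and 44.5 CPM untreated and 12.7, 13.04 and 7.32 CPM with E+P, and Tspan8 had 11.3, 6.02, 11.1 and 15.4 CPM untreated and 4.33, 2.65 and 3.76 CPM with E+P. Neither gene's groups overlapped, and the log2 fold changes were -1.56 ± 0.31 (adjusted p = 0.00276) and -1.61 ± 0.37 (adjusted p = 0.00655). These were 2 of 10 members, both lower, where 7.63% of all genes were called higher and 6.44% lower. Ranges did not overlap for 5 of 10 members, against 31.4% of all genes. Cd14 lost its call without untreated mouse 3 or 4 or E+P mouse 1, 2 or 3 (adjusted p up to 0.0211), and Tspan8 without untreated mouse 1, 3 or 4 or E+P mouse 2 or 3 (adjusted p up to 0.0399). The call of Tspan8 was also lost with limma-voom (adjusted p = 0.0295) and without a filter on low counts (adjusted p = 0.0212).

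Elf5, Kit, Plet1 and Kitl passed the threshold in that subset in some fits without 1 mouse. Elf5 stood at 0.314 of its untreated level (log2 -1.67 ± 0.42, adjusted p = 0.0114) and Kit at 0.387 (log2 -1.37 ± 0.39, adjusted p = 0.0217). Without untreated mouse 2, whose tdTomato+ luminal library had the lowest Elf5 and Kit of the 4, both were called, at -1.94 with an adjusted p of 0.00259 and -1.63 with 0.00237, and so was Plet1, at -1.49 with 0.00772. With all mice Plet1 was not called (log2 -1.27 ± 0.37, adjusted p = 0.0233). Kitl had the opposite direction, at 1.59-fold (log2 0.67 ± 0.24, adjusted p = 0.0591), and was called without E+P mouse 1 (log2 0.91, adjusted p = 0.00712). Elf3, Sox9, Ehf and Runx1 had log2 values of -0.45 ± 0.16, -0.81 ± 0.29, -0.23 ± 0.24 and -0.25 ± 0.16 (adjusted p = 0.0463, 0.0545, 0.52 and 0.249).

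Whether the luminal subsets differ in their E+P response was tested as an interaction, and 0 of 10 members were called, against 2.27% of all genes. The 3 ETS genes had the values nearest to the threshold. Elf3 had a difference of responses of -0.66 ± 0.22 (adjusted p = 0.0906), Ehf of 1.01 ± 0.34 (adjusted p = 0.0946) and Elf5 of 1.43 ± 0.56 (adjusted p = 0.155), while Kit had 0.95 ± 0.53 (adjusted p = 0.323). The luminal comparisons share their libraries, so that the larger GFP+ to tdTomato+ differences after E+P and these responses are not separate evidence. Beside the members, Ltf, which encodes lactoferrin, fell with E+P in both subsets (-4.00 ± 0.58, adjusted p = 0.00142 in GFP+ and -4.56 ± 0.61, adjusted p = 0.000305 in tdTomato+). Stat5a, the kinase-activated factor of the KIT list, rose in both (1.80 ± 0.17, adjusted p = 8.42e-05 and 1.63 ± 0.17, adjusted p = 2.33e-05).

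In stroma Kitl was the one member called higher in the GFP+ than in the tdTomato+ fraction. Kitl (ENSMUSG00000019966, chr10:100015630-100100416, + strand) had 186, 197, 203 and 238 CPM in untreated GFP+ stroma and 80.9, 62.3, 74.7 and 64.9 CPM in tdTomato+ stroma. All 4 mice had more in the GFP+ fraction, and the groups lay far apart at 2.88-fold (log2 1.52 ± 0.12, adjusted p = 2.12e-08). Without the library of untreated mouse 3 that stands apart the value was 1.54 (adjusted p = 1.52e-07).

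With E+P, Kitl had 162, 162 and 165.99 CPM in GFP+ stroma and 60.6, 50.7 and 56.8 CPM in tdTomato+ stroma, which is 2.89-fold (log2 1.53 ± 0.13, adjusted p = 1.19e-07). Both stromal fractions had lower Kitl with E+P and no overlap with untreated libraries. Ranges did not overlap for 2 of 10 members in each fraction, against 12.2% and 10.1% of all genes. The log2 differences of -0.33 ± 0.12 in each were not called (adjusted p = 0.384 and 0.196), and 41 and 22 genes in all were called there, 0.231% and 0.124% of the 17783 tested. The other 9 members were also not called for E+P in either stromal fraction, with adjusted p from 0.115 to 1, and 1429 and 2780 genes had an unadjusted p under 0.05. For the difference of the E+P response between the stromal fractions 0 of 10 members were called, against 0.045% of all genes.

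Around the ligand, Adam17, which encodes a sheddase of membrane proteins, was higher in GFP+ stroma, at 145.5 against 41.0 CPM untreated (1.81 ± 0.18, adjusted p = 4.43e-07). Of the 24 genes of the KIT list 6 were higher and 4 lower in untreated GFP+ stroma, and 5 and 5 after E+P. Over all genes tested 13.5% were higher and 14.9% lower untreated, and 14.2% and 13.9% after E+P, so nothing particular to the list is read from its counts. Cblb was higher (1.25 ± 0.12, adjusted p = 2.06e-07) and Gab1 lower (-2.21 ± 0.16, adjusted p = 1.13e-08). In the TLR4 list 6 of 12 were higher and 0 lower in untreated GFP+ stroma, among them Tlr4 (1.24 ± 0.18, adjusted p = 2.84e-05) and the lipopolysaccharide-binding protein gene Lbp (3.03 ± 0.66, adjusted p = 0.00322), while Cd14 stood at 0.681 to 6.47 CPM in all stromal libraries.

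Runx1 was the one other member with a high level in stroma, and there in the tdTomato+ fraction. It had 13.9, 18.6, 18.8 and 19.1 CPM in untreated GFP+ stroma and 232, 173, 359 and 352 CPM in tdTomato+ stroma. The groups were separated by a wide gap, with GFP+ stroma at 0.0622 of the tdTomato+ level (log2 -4.01 ± 0.40, adjusted p = 5.89e-06), and at -3.87 without the library that stands apart (adjusted p = 1.88e-05). With E+P the value was -3.82 ± 0.46 (adjusted p = 2.7e-05). Its relative Runx2 had the opposite direction in stroma, at 43.9 against 9.57 CPM untreated (2.16 ± 0.38, adjusted p = 0.000427).

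Sox9 was lower in untreated GFP+ stroma, with 16.05, 15.4, 14.4 and 11.4 CPM against 31.0, 32.0, 96.6 and 22.4 CPM. The groups did not overlap and the difference was -1.68 ± 0.37 (adjusted p = 0.00224). The highest value belongs to the library that stands apart, and without it the difference was -1.02 (adjusted p = 0.00122). Thus 1 member was higher and 2 were lower in untreated GFP+ stroma, where 13.5% of all genes were called higher and 14.9% lower. After E+P 1 was higher and 3 lower (Kit, Tspan8 and Runx1), against 14.2% and 13.9% of all genes, and the value of Sox9 was -0.73 ± 0.42 (adjusted p = 0.187). The ranges did not overlap for 3 members untreated and 8 after E+P, against 32.6% and 53.0% of all genes.

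Kit itself was low in stroma and lower in its GFP+ fraction. It had 0.833, 8.91, 2.13 and 2.20 CPM in untreated GFP+ stroma and 6.55, 19.9, 19.4 and 11.9 CPM in tdTomato+ stroma. The ranges overlapped through untreated mouse 2, although each mouse had less Kit in its GFP+ stroma. The difference was -2.06 ± 0.59 (adjusted p = 0.0129), -2.89 without that mouse (adjusted p = 0.000341), and -2.40 with the mouse as a block (adjusted p = 0.000218). It was -1.89 without the library that stands apart (adjusted p = 0.03), and -1.71 (adjusted p = 0.0782) without any library of that mouse, untreated mouse 3.

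With E+P the GFP+ stroma had 2.19, 0.581 and 1.28 CPM of Kit and the tdTomato+ stroma 16.3, 14.8 and 20.8 CPM, a difference of -3.73 ± 0.74 (adjusted p = 0.00115). Without E+P mouse 2 or 3 its adjusted p was 0.0146 or 0.0189. Mast cells and melanocytes are known to express Kit. In the 3 E+P tdTomato+ stromal libraries 7 mast cell markers summed to 0.204 to 2.45 CPM, with Mcpt4, Tpsb2, Fcer1a and Ms4a2 at 0. In the untreated ones the mast cell list summed to 2.18, 20.9, 49.8 and 0.291 CPM, highest in the library that stands apart, with Fcer1a at 0, and in GFP+ stroma to 0.917 to 5.19 CPM. The 5 melanocyte markers summed to 0 to 20.5 CPM in E+P tdTomato+ stroma (median 2.88 CPM) and to 0.475 to 18.3 CPM in untreated tdTomato+ stroma. In GFP+ stroma they summed to 0.852 to 11.3 CPM untreated and to 1.46 to 1.57 CPM after E+P. The part of either cell type in the level of Kit was not tested.

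Tspan8 was called in stroma after E+P on few reads. GFP+ libraries had 0, 0 and 2 counts and tdTomato+ libraries 25, 35 and 24 counts (adjusted p = 0.00651), and the call was lost with the mouse as a block (adjusted p = 0.015) and without any 1 of the 3 E+P mice (adjusted p up to 0.061). The untreated difference of Tspan8 was -3.46 ± 1.05 (adjusted p = 0.0136), and -3.58 without the library that stands apart (adjusted p = 0.0171). It was called with DESeq2 (adjusted p = 0.00128) and without a filter on low counts (0.00344), and not with the mouse as a block (0.0408). Elf5 had 0 counts in each of the 3 E+P GFP+ stromal libraries and at most 2.19 CPM in any stromal library. Its untreated difference between stromal fractions was -0.71 ± 1.05 (adjusted p = 0.633). However, 3 of 4 untreated mice had more Elf5 in GFP+ stroma, and the 2.19 CPM belong to the library that stands apart. The untreated difference of Cd14 was -1.02 ± 0.61 (adjusted p = 0.2), and -0.74 without the library that stands apart (adjusted p = 0.399). Plet1 was not called in stroma, at -1.74 ± 0.75 untreated (adjusted p = 0.0781) and -1.16 without the library that stands apart (adjusted p = 0.259). After E+P its difference was 0.55 ± 0.90 (adjusted p = 0.674), and the value turned to -0.80 without E+P mouse 3.

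Set against the mean of the 14 luminal libraries, stromal levels differed between members. In the 3 E+P tdTomato+ stromal libraries the 7 luminal epithelial markers stood at 0.0489% to 0.578% of their luminal mean, and Kit at 3.14% to 4.41%, Sox9 at 5.07% to 7.77%, Tspan8 at 5.24% to 7.11% and Runx1 at 80.9% to 113%. Elf5 stood at 0.314% to 0.501% there. In untreated tdTomato+ stroma the luminal markers reached 7.38%, Elf3 13.97% and Ehf 3.10%, all in the library of untreated mouse 3, and without it the difference of Elf3 between stromal fractions moved from -3.59 (adjusted p = 0.0243) to -2.36 (adjusted p = 0.126) and that of Ehf from -1.35 (adjusted p = 0.316) to -0.60 (adjusted p = 0.682).

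**Figure D3:**
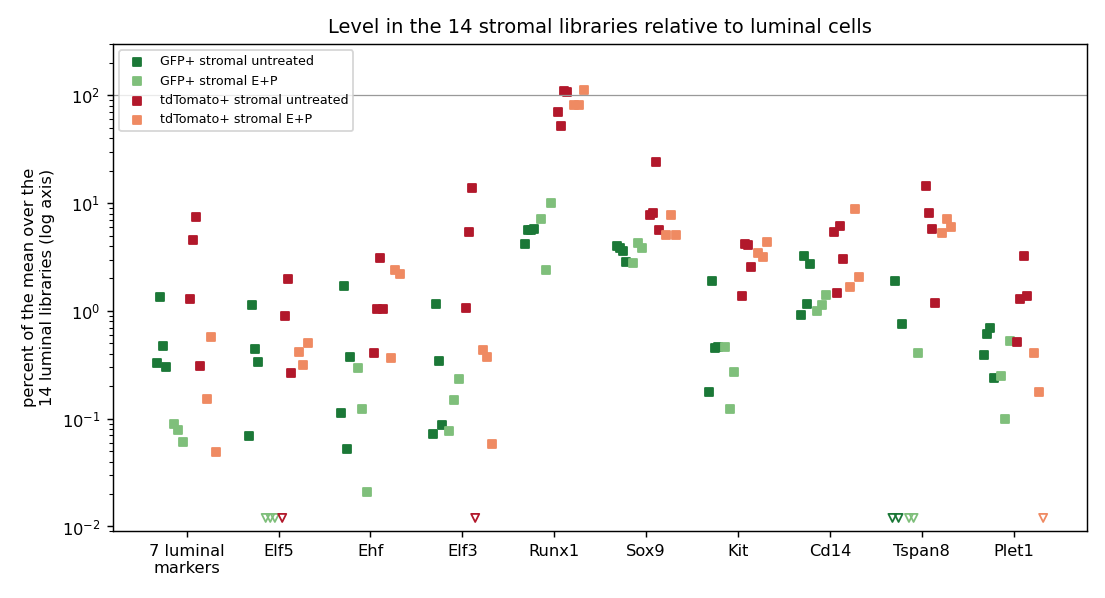
Level of 9 members and of the summed 7 luminal epithelial markers in the 14 stromal libraries, as a percent of their mean over the 14 luminal libraries, on a log axis. Each square is 1 library and open triangles are libraries with 0 counts. Runx1 in tdTomato+ stroma lies near the luminal level, while Elf5 and Plet1 stay at or below 3.22%.

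Between lineages, 9 of 10 members were higher in luminal cells than in stroma, where 30.5% of all 19569 genes tested were called higher. Fold differences ran from 4.17 for Runx1 (log2 2.06 ± 0.16, adjusted p = 2.24e-11) to 342 for Elf5 (log2 8.42 ± 0.40, adjusted p = 6.14e-14). Plet1 was 159.7-fold higher (log2 7.32 ± 0.36, adjusted p = 2.03e-14), Elf3 153-fold, Ehf 119-fold, Kit 51.3-fold, Tspan8 40.1-fold, Cd14 24.9-fold and Sox9 17.0-fold. Kitl was the exception, at -0.09 ± 0.10 with a 95% interval from -0.30 to 0.11 (adjusted p = 0.402). Scaling by library size shifts every gene by 0.29 in this comparison and turned the Kitl value to 0.19 (adjusted p = 0.0835).

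Receptor and ligand can be set side by side per kilobase of exon (CPM per kb). The length is that of all annotated exons of a gene merged, 8911 bases for Kit and 5911 for Kitl. The transcripts present may be shorter, so ratios near 1 depend on this choice. Kit in GFP+ luminal cells stood at 72.0 to 130 CPM per kb over the 7 mice and Kitl in GFP+ stroma of the same mice at 27.3 to 40.3 CPM per kb, so that the level of Kit was 2.55 to 3.88 times that of the ligand gene. Per kb, Kit in tdTomato+ luminal cells was lower than Kitl in GFP+ stroma in every mouse, at 0.148 to 0.779 of it. In CPM without length this did not hold for untreated mouse 4, with 279.6 CPM of Kit against 238.2 CPM of Kitl. Untreated mice 1 and 3 were close, at 183.1 against 186.2 and 199.9 against 202.7 CPM. Within GFP+ luminal cells Kit was 3.96 to 7.14 times Kitl. Within tdTomato+ luminal cells the same ratio ran from 0.833 to 2.22 in untreated mice and from 0.176 to 0.802 in E+P mice.

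Within GFP+ stroma the ratio turned around, with Kitl at 33.4 to 422 times the level of Kit per kb. In tdTomato+ stroma Kitl was 4.12 to 18.6 times Kit. RNA levels of separately sorted fractions are scaled within each library, so these ratios compare shares of RNA and not molecules per cell.

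**Figure D4:**
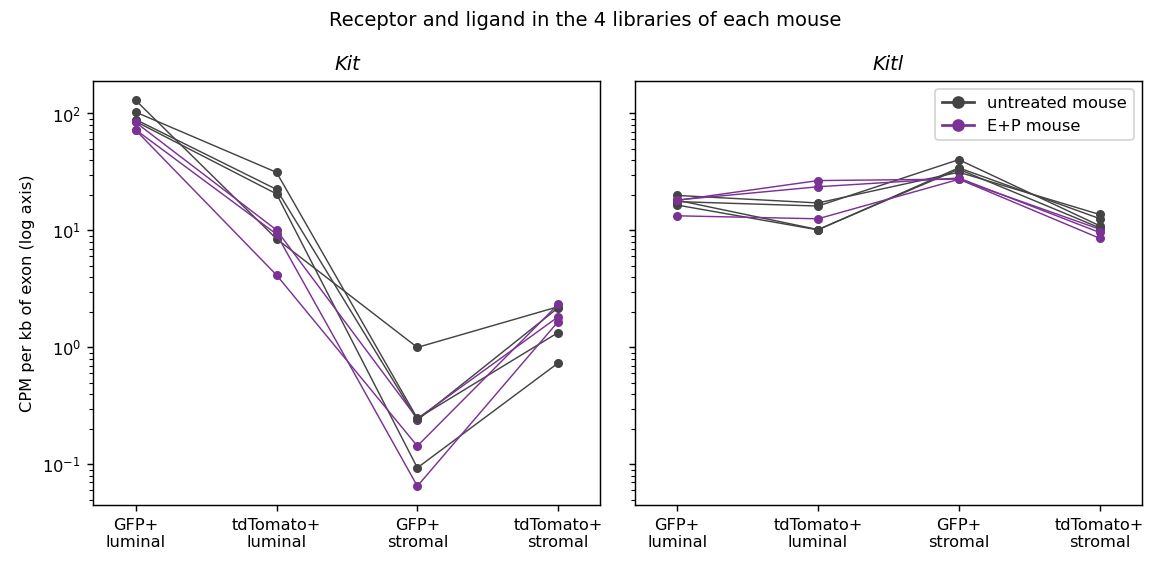
Kit and Kitl in CPM per kb of exon on a log axis, with 1 line for each of the 7 mice through its 4 libraries. Grey lines are untreated and purple lines E+P mice. Kit lies at 72.0 to 130 CPM per kb in GFP+ luminal cells and at most at 1.00 in GFP+ stroma, while Kitl stays between 8.58 and 40.3 in all 28 libraries.

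Over the 8 groups, the mean levels of Elf5, Kit, Cd14, Tspan8 and Plet1 kept one order in the luminal part: GFP+ untreated, GFP+ E+P, tdTomato+ untreated, tdTomato+ E+P. Neighbours in that order overlapped for Elf5 between the GFP+ groups, for Kit between the tdTomato+ groups, and for Tspan8 and Plet1 between GFP+ E+P and tdTomato+ untreated, while no luminal neighbours of Cd14 overlapped. The tdTomato+ luminal E+P libraries of Tspan8 also overlapped with tdTomato+ stroma. Ehf differed by having GFP+ E+P first, with tdTomato+ groups that overlapped. For Kitl the order was GFP+ stroma untreated, GFP+ stroma E+P, then the 4 luminal groups, which overlapped one another, then untreated tdTomato+ stroma, which overlapped with tdTomato+ luminal cells, and last E+P tdTomato+ stroma. Elf3 was highest in untreated tdTomato+ luminal cells, with overlap between the untreated GFP+ and E+P tdTomato+ luminal groups, and lowest of the luminal groups in E+P GFP+ cells. The 4 luminal groups of Sox9 overlapped with their neighbours. Runx1 had tdTomato+ luminal cells, tdTomato+ stroma and GFP+ luminal cells in overlapping ranges from 173 to 502 CPM, and GFP+ stroma alone below, at 7.87 to 33.4 CPM.

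Per kb, Plet1 was the most abundant member in untreated GFP+ luminal cells (425 ± 147 CPM per kb, SD, n = 4). Sox9 followed with 126 ± 27.9, Ehf with 105 ± 23.3, Kit with 102 ± 20.1 and Cd14 with 88.3 ± 24.9 CPM per kb, which overlap one another within their spread. Elf3 had 48.0 ± 6.72, Elf5 33.7 ± 9.53, Tspan8 31.2 ± 5.67, Runx1 23.8 ± 4.11 and Kitl 18.05 ± 1.43 CPM per kb.

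Among the 14 luminal libraries, log2 CPM of Elf5 correlated with Kit (Pearson r = 0.984), Cd14 (0.966), Tspan8 (0.923), Ehf (0.901) and Plet1 (0.885), and Elf3 with Runx1 (0.884). These libraries come from 7 mice and fall into 4 groups, so the values describe the group pattern as much as the variation within it. Over all 28 libraries, the protein-coding genes most like Kit among 10721 candidates were Sox10 (r = 0.985), Cytip (0.974) and Map3k1 (0.970). Those most like Elf5 were Itprid1 (0.977), Ckmt1 (0.975) and Tfap2c (0.975), and those most like Kitl were Psap (0.933), Cyp39a1 (0.889) and Aldh7a1 (0.880). For Elf5 and Kit this likeness rests mostly on the gap between luminal and stromal libraries.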

How the data were processed

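The authors sequenced 28 libraries (SMARTer stranded total RNA pico kit, paired-end) and deposited whole-number read counts per gene, unnormalized, made with STAR 2.5.2a on GRCm38.p5 and a GENCODE annotation; its release and the strand setting are not given in the sources used here. The study states that RNA concentration and integrity varied widely, and that the fragmentation time was changed to suit RNA of lower quality. The RNA quality of each library is not given in the sources used here, and its part in the differences was not tested. The labels gave groups and mouse numbers. Symbols and coordinates come from GENCODE M21 (50376 of 50600 IDs found). Counts were filtered with filterByExpr, scaled by TMM and tested, two-sided, with edgeR 4.0.16 (robust quasi-likelihood F-test, R 4.3.3) in a luminal fit, a stromal fit and a fit of all 28 libraries, each group a mean. Calls need a Benjamini-Hochberg adjusted p under 0.01. SE is the absolute log2 fold change over the square root of F, and intervals use the t quantile at the residual and prior degrees of freedom of the fit. Log2 CPM have a prior count of 2. The fits were tested on simulated data. Alternatives were other scaling (library size, DESeq2 1.42.0 with its size factors), limma-voom 3.58.1, no filter, replicate blocks, fits of only the groups compared, a threshold of 0.05, each mouse left out and, chosen after seeing the data, 1 stromal library left out.

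Same-numbered libraries of one treatment come from the same mouse, and deviations from group means correlated at 0.164 on average in untreated luminal pairs and 0.0693 in untreated stromal pairs. Members, lists and tests were chosen with earlier results of these data known. All 10 members are named, and from each other list up to 3 called genes per direction whose higher group averaged 10 CPM or more. For Elf5, Kit and Kitl, the 3 genes with the highest r are named.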

Additional observations from a re-analysis of the deposited data

Results flagged for a closer look

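Of 40 sets of 4 untreated libraries, one for each member and group, 3 held a library whose gap to its neighbour exceeded 0.829 of the whole range. Chance flags about 1 in 20 such sets. Kit stood at 8.91 CPM in the GFP+ stroma of the second untreated mouse, against a group median of 2.17 CPM, and luminal markers stood at 1.36% of their luminal mean there, the highest of the GFP+ stromal libraries. Sox9 stood at 96.6 CPM in the tdTomato+ stroma of the third untreated mouse, against a median of 31.5 CPM, in the library with luminal markers at 7.38%. Runx1 stood at 13.9 CPM in the GFP+ stroma of the first untreated mouse, against a median of 18.7 CPM. What part the luminal RNA had in the first 2 values was not tested.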

How the results depend on the processing

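Over all alternatives, 988 member fold changes kept direction and side of the threshold, 31 gained a call, 46 lost one and 5 turned. The turned values were 0.044 for Elf5 under E+P in GFP+ luminal cells with the replicate number as a block, 0.19 for Kitl between lineages under scaling by library size, and 3 under leaving out a mouse, where ranges were -0.80 to 1.76 for Plet1 between stromal fractions after E+P, -0.35 to 0.032 for Ehf under E+P in tdTomato+ luminal cells and -0.18 to 0.021 for Kitl between lineages. A further 34 fold changes are not given, of which 10 changed sign and 5 were called under some alternative. The cause was not tested.

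Genes called with DESeq2 numbered 3884 between untreated luminal subsets, 2035 and 3558 for E+P in GFP+ and tdTomato+ luminal cells, 192 and 384 in the stromal fractions, and 1014 for the luminal difference of response. An adjusted p under 0.05 gave 4974 and 6499 between luminal subsets (untreated, E+P), 2475 and 4444 for E+P in GFP+ and tdTomato+ luminal cells, 126 and 143 in the stromal fractions, and 1089 for the luminal difference. Fits of only the groups compared gave 1226 between untreated luminal subsets and 560, 187 and 0 for the E+P response of luminal GFP+, stromal GFP+ and stromal tdTomato+ cells. For E+P in GFP+ stroma voom gave 100 and no filter 459, and in tdTomato+ stroma voom gave 8, no filter 840.0, library size 34, the replicate block 45 and leaving out the library that stands apart 8. The stromal difference of response, with 0.045% of genes called as reported, had 0.624% with DESeq2, 0.0225% with voom, 1.42% with no filter, 0.0731% with the mouse as a replicate block, 0.0286% without that library and 0.242% under 0.05.

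Members called numbered 4 between untreated luminal subsets in the fit of only these groups. Between untreated stromal fractions they numbered 6 with DESeq2, 8 with no filter and 6 under 0.05. For E+P in GFP+ luminal cells they numbered 3 with DESeq2, 2 with the replicate block and 3 under 0.05, and in tdTomato+ luminal cells 5 by library size, 5 with DESeq2, 1 with voom, 1 with no filter, 0 with the replicate block and 6 under 0.05. For E+P in stroma 2 (GFP+) and 3 (tdTomato+) were called with no filter and 1 (tdTomato+) with DESeq2. Untreated and E+P mice share only a number, so that block is no pairing. The mouse block changed no member's call beside Kit and Tspan8 in stroma.

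Leaving out each mouse in turn gave 978 to 2187 and 1690.0 to 4418 genes between luminal subsets (untreated, E+P), 4015 to 4652 and 3167 to 5214 between stromal fractions, 169 to 962 and 1140.0 to 2144 for E+P in GFP+ and tdTomato+ luminal cells, 16 to 46 and 1 to 85 in the stromal fractions, 33 to 314 for the luminal difference, 0.00535% to 0.0743% for the stromal one and 11408 to 11986 between lineages. Members called ranged from 4 to 6 and 6 to 8, 3 to 4 and 2 to 5, 0 to 2 and 0 to 5 in the first 6 of these. At these depths a gene with 0 counts may lie up to 0.348 CPM.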
